A study of Mus musculus with 3 samples.

Results

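Subicular and cortical excitatory neurons were taken as the nuclei that carried at least 2 of the 5 genes Tshz2, Fn1, Rxfp1, Vwc2l and Coro6 together with a vesicular glutamate transporter, Slc17a7 or Slc17a6. They were selected on raw counts of unique molecular identifiers (UMIs, which tag single captured RNA molecules): the UMI sum over the 5 genes had to exceed 2 times each of the sums of marker sets for dentate granule, CA1 and CA2/CA3 neurons, Gad1 plus Gad2 and the glial genes Mog, Mag, Aqp4 and Csf1r could each sum to at most 1, and the thalamic genes Tcf7l2 and Lef1 had to be at 0. This gave 1084 of 35322 nuclei from frozen mouse hippocampus: 424 of 12192 in the library from mice given doxorubicin plus ACY-1083, 315 of 12221 in the library from mice given doxorubicin, and 345 of 10909 in the control library from mice with no treatment. Doxorubicin, a chemotherapy drug, poisons topoisomerase II, and ACY-1083 inhibits the deacetylase HDAC6; the series title gives the reversal of cognitive impairment by the inhibitor as the question. Each library pooled both hippocampi of 4 mice, so the groups had 1 library each; the labels give neither dose, strain, sex nor age. Because no group had a second library, no test between groups was possible, and every value describes these libraries; 95% intervals are exact and cover counting error only.

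The subiculum is the main output field of the hippocampal formation: its pyramidal neurons receive CA1 axons and send glutamatergic projections to entorhinal and retrosplenial cortex and to the hypothalamus. Excitatory neurons of the adjoining cortex are grouped by layer and by projection target, and transcription factors such as Cux2 in upper layers, Fezf2 in layer V and Foxp2 in layer VI are common markers of these groups. Among the selecting genes, Fn1 encodes fibronectin and is a known marker of the subiculum, Tshz2 encodes a zinc finger transcription factor and Vwc2l a secreted protein that are both used as markers of near-projecting deep-layer cortical neurons, Rxfp1 encodes a relaxin receptor and Coro6 an actin-binding coronin.

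The libraries differed in depth. Members had a median of 6396, 2110 and 2146 UMIs in the doxorubicin plus ACY-1083, doxorubicin and control libraries, against 6142, 1919 and 1891 in the other excitatory nuclei and 3912, 1485 and 1487 over all barcodes, and summed to 3041207, 736027 and 805068 UMIs. Malat1, a nuclear RNA, took 5.6, 20 and 19% of these. Relative to doxorubicin, the doxorubicin plus ACY-1083 library also held more counts in genes with long introns, as given further on, so values are set side by side across libraries only for doxorubicin against control and for genes with little intron; otherwise members are compared with other nuclei of their own library. RNA of choroid plexus epithelium, which lines the ventricles, was present in neuronal nuclei: Ttr was found in 46.7, 84.6 and 55.9% of members and 47.8, 85.9 and 60.9% of other excitatory nuclei when each nucleus was thinned at random to 1000 UMIs. The doxorubicin plus ACY-1083 library shared 46 barcodes with the doxorubicin and 29 with the control library, and doxorubicin shared 42 with control, none of them a member in both. Without removal of doublets, 14, 9 and 14 members were among the 5% of barcodes with the highest doublet scores of their library.

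Tshz2 was the most often detected of the selecting genes. It had 2491, 1587 and 1448 CPM (counts of the gene per 1000000 UMIs of the same nuclei) in members of the doxorubicin plus ACY-1083, doxorubicin and control libraries, and was present in 98.8, 93.7 and 91.9% of them, against 11.6, 9.62 and 10.7% of the other excitatory nuclei. Vwc2l was present in 70.5, 36.8 and 35.7% and Fn1 in 25.7, 30.8 and 27.8% of members, Rxfp1 in 45.8, 39.7 and 44.1% and Coro6 in 37.3, 50.5 and 52.2%. The deeper doxorubicin plus ACY-1083 library had more members with Vwc2l and fewer with Coro6 than the other libraries. Slc17a7, the transporter of cortical and hippocampal glutamatergic neurons, was detected in 88.9, 97.8 and 96.8% of members. Slc17a6, the transporter typical of thalamus and also found in subiculum, was detected in 29, 9.21 and 11% of members and 3.84, 2.51 and 2.81% of other excitatory nuclei. These values chose the nuclei and are a description only.

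**Figure D1:**
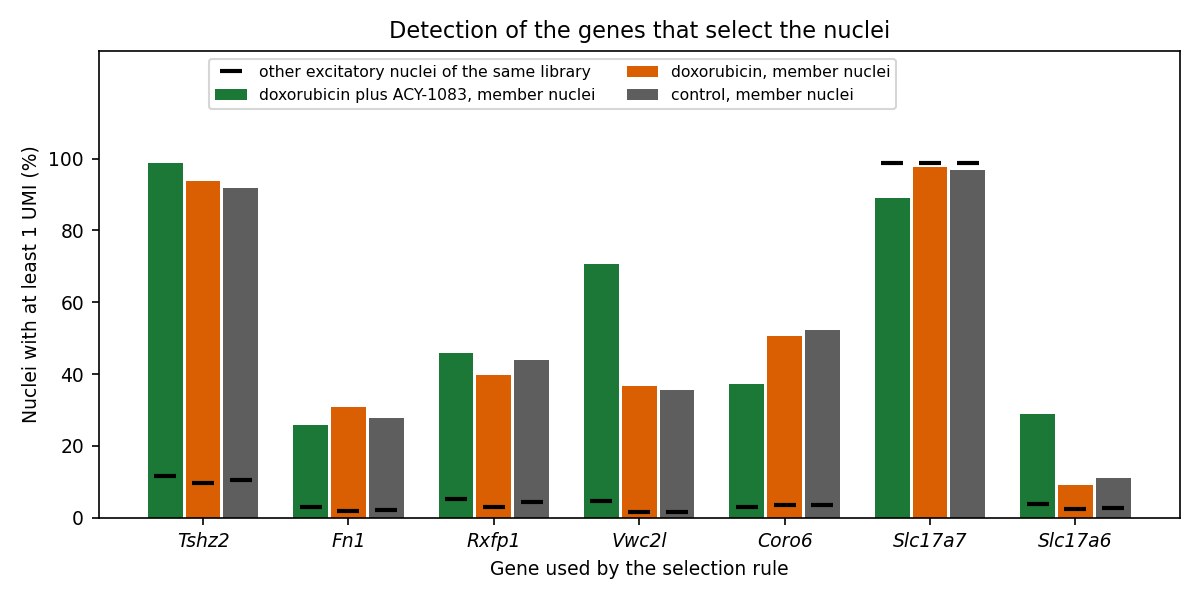
Share of nuclei (%) with at least 1 UMI of each gene used by the selection, as bars for members of the doxorubicin plus ACY-1083, doxorubicin and control libraries, with a black dash for the other excitatory nuclei of the same library; no replicates exist. Tshz2 was detected in 98.8, 93.7 and 91.9% of members and Fn1 in 25.7, 30.8 and 27.8%.

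In the doxorubicin and control libraries, most members carried the smallest number of selecting genes allowed. Exactly 2 of the 5 were detected in 175, 188 and 201 members, and 3 or more in 249, 127 and 144, in the order doxorubicin plus ACY-1083, doxorubicin and control. Just inside the margin, 14, 42 and 33 members had a marker sum 1 UMI above 2 times the highest of the other sums. Just outside it, 12, 43 and 43 nuclei had a sum equal to 2 times the highest, and 62, 208 and 253 nuclei met every condition but had 1 marker. Fn1 and Rxfp1 were found together in 16.3, 15.9 and 15.1% of members, and Fn1 and Vwc2l in 9.43, 4.13 and 4.64%. Zbtb20, which took no part in the selection, had 297, 180.1 and 263 CPM in members with exactly 2 markers, 207, 140.4 and 210.1 CPM in members with 3 or more and 323, 379 and 299 CPM in the nuclei with 1 marker.

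Members made up 3.48% (3.16 to 3.82) of the barcodes of the doxorubicin plus ACY-1083 library, 2.58% (2.3 to 2.87) of the doxorubicin library and 3.16% (2.84 to 3.51) of the control library. Of the excitatory nuclei they were 8.61, 5.94 and 6.84%. The doxorubicin share was the lowest as counted, and its interval overlapped that of the control library at the upper edge. With every nucleus thinned to 1000 UMIs and the same conditions applied, the shares were 0.567%, 1.27% and 1.66%, from 63, 113 and 132 members among the 11104, 8869 and 7958 nuclei deep enough to keep, so the doxorubicin plus ACY-1083 library then had the lowest share. The share also depends on how much tissue next to the hippocampus was dissected with it, which was not measured.

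Genes that took no part in the selection separated the members from the other excitatory nuclei of the same library. Of 10006 genes with at least 100 UMIs in the pair of groups in each library, 123 (1.23%) were at least 2-fold higher and 159 (1.59%) at least 2-fold lower in members in all 3 libraries. Since the members were picked from the same counts, these are descriptions and carry no test. Sgcz, which encodes zeta-sarcoglycan (GRCm38 chromosome 8, 37522298 to 38661508, GENCODE vM21 as for all gene positions here), had 3503, 383 and 344 CPM in members, against 302, 57.8 and 59.3 CPM in the other excitatory nuclei. Brinp3, a neural gene inducible by retinoic acid (GRCm38 chromosome 1, 146494760 to 146902472), had 798, 712 and 771 CPM in members, against 185, 129 and 148 CPM in the other excitatory nuclei, ratios of 4.32 (4.12 to 4.53), 5.52 (4.98 to 6.11) and 5.21 (4.74 to 5.73). Both stood higher in members of every library. The long noncoding RNA Rmst had ratios of 12.7, 7.51 and 5.23, the lncRNA Mirt1 4.8, 7.78 and 7.43, and Ptprt, a receptor tyrosine phosphatase, 7.95, 6.4 and 5.35. The contactin Cntn6, a cell adhesion protein listed here as a subicular marker, had 332, 40.8 and 70.8 CPM in members, against 32.8, 8.41 and 10.8 CPM in the other excitatory nuclei. The other genes named at this end were Stxbp2, Tmem44, Astn2, Cit, Trmt9b and Gpc6, with ratios between 3.63 and 10.6.

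Zbtb20, a transcription factor gene, led the low end. It specifies hippocampal pyramidal and granule neurons during development (GRCm38 chromosome 16, 42875881 to 43642602) and had 239.7, 162 and 237 CPM in members, against 2209, 1256 and 1436 CPM in the other excitatory nuclei, ratios of 0.109 (0.101 to 0.117), 0.129 (0.107 to 0.154) and 0.165 (0.142 to 0.191). Among the nuclei set apart by the mirrored rules, granule neurons had 3205, 1720.1 and 2054 CPM of Zbtb20, CA1 neurons 1114, 853 and 982 CPM and CA2/CA3 neurons 3047, 1687 and 2039 CPM. Thinned to 1000 UMIs, Zbtb20 was found in 16, 10.8 and 14.3% of members and 76.4, 61.5 and 63.5% of other excitatory nuclei. The transcription factor Zeb2 had ratios of 0.161, 0.258 and 0.254, and Tafa1, which encodes a secreted chemokine-like protein, 0.224, 0.197 and 0.244. Adarb2, of the RNA-editing enzyme family, was high in granule neurons at 1609, 306 and 359.6 CPM and had 70.4, 17.7 and 18.6 CPM in members. Ifi203, an interferon-inducible gene, was found as 1, 1 and 0 UMIs in members and 332, 282 and 199 UMIs in the other excitatory nuclei, where CA2/CA3 neurons had 37.5, 123 and 98.1 CPM. Golm1 had ratios of 0.136, 0.138 and 0.19 and Zfhx4 of 0.156, 0.174 and 0.189.

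**Figure D2:**
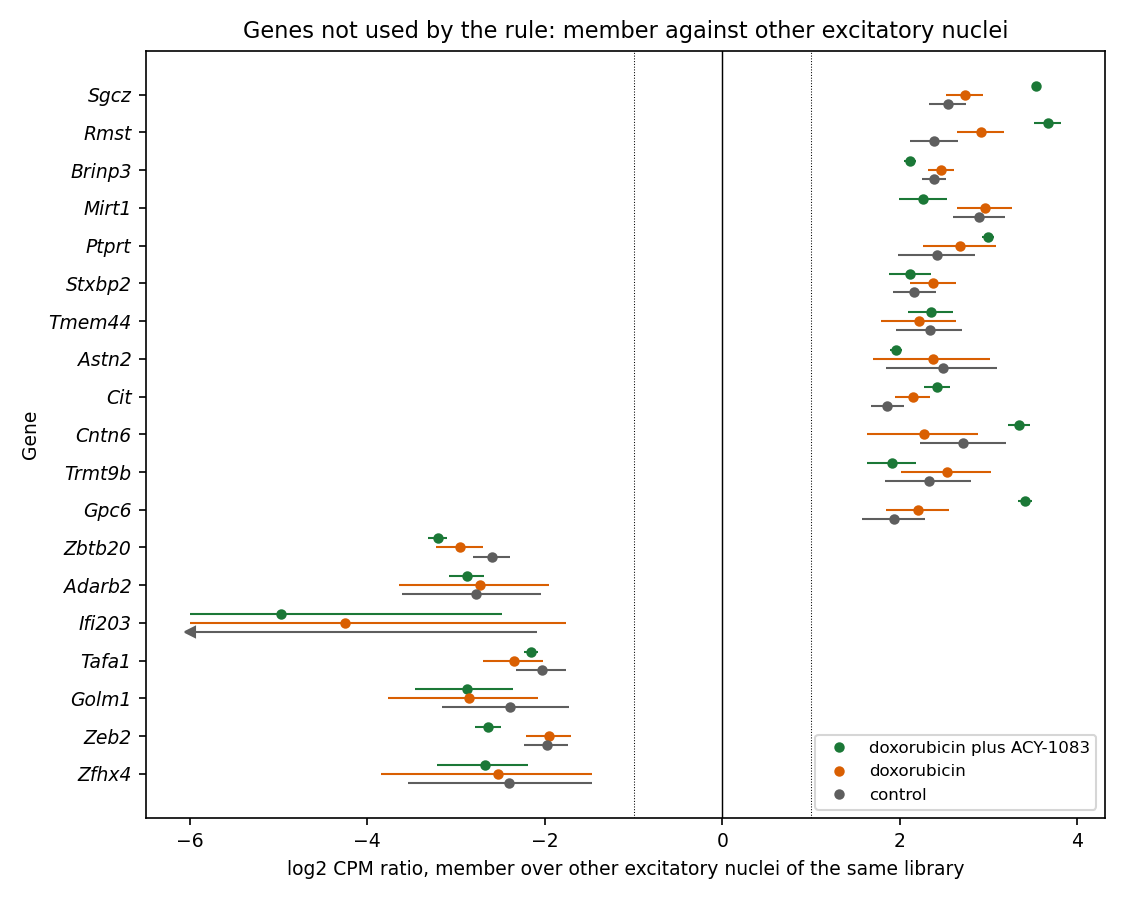
log2 CPM ratio (horizontal axis) of members over the other excitatory nuclei of the same library for the genes named from the comparison, which excludes the selecting genes; points are the doxorubicin plus ACY-1083, doxorubicin and control libraries, bars are 95% counting intervals cut at the left edge, an arrow marks a library without a UMI in members, and dotted lines mark 2-fold. Zbtb20 ratios were 0.109, 0.129 and 0.165 and Sgcz ratios 11.6, 6.63 and 5.81.

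Markers of cortical layers were spread over the members, several of them above the other excitatory nuclei and others level with them or below. Cux2, of upper layers, had 113, 61.1 and 54.7 CPM in members, against 11.5, 12 and 14.4 CPM in the other excitatory nuclei. Fezf2, which specifies layer V projection neurons, had 26.6, 87 and 84.5 CPM in members, against 13.1, 31.9 and 35.2 CPM in the other excitatory nuclei. Both were at least 2-fold higher in members of all 3 libraries, as were Nr4a2 (2.11, 2.67 and 2.25), Foxp2 (4.38, 2.74 and 3.66), Il1rapl2 (4.48, 3.16 and 2.28) and the neuropeptide gene Nts (4.75, 3.11 and 3.21). Nts rested on 31, 13 and 12 UMIs and Foxp2 on 140, 7 and 14. The other upper-layer markers did not go with Cux2. Rasgrf2 had ratios of 1.11, 0.98 and 0.801, Otof 0.622, 1.18 and 0.673, and Stard8 had 2, 0 and 1 UMIs. Of the other layer V markers, Pou3f1 had 1.78, 2.31 and 2.13 and Parm1 1.29, 1.43 and 1.28. Bcl11b had 0.996, 1.27 and 1.04 and Npr3 0.564, 0.769 and 0.68. Gnb4, listed for layer VI and claustrum, had 0.725, 0.895 and 0.509. Among markers listed with Foxp2 for layer VI, Tle4 had 1.7, 1.39 and 1.29 and Hs3st4 1.4, 1.07 and 0.887. Rprm had 1.4, 0.951 and 1.51, and Syt6 had 8, 0 and 0 UMIs. Among markers listed with Il1rapl2 for layers IV and V, Deptor had 3.91, 3.43 and 1.49. Rorb had 2.51, 1.07 and 1.53 and Whrn 8.47, 1.69 and 2.81. Of the further subicular markers, Dlk1 had 5, 1 and 3 UMIs, Gpc3 15, 1 and 0 and Tpbg 3, 3 and 2, and of the layer 6b markers Nxph4 had none in any library. Of 4 near-projecting markers outside the selection, Slc17a8 had 0, 0 and 1 UMIs, Sla2 3, 3 and 1, Trhr 46, 3 and 10 and Lypd1 120, 24 and 14. Of the subicular markers outside the selection, Cntn6 and Nts were above the other excitatory nuclei in all 3 libraries. Gpc3 was below them, at a ratio of 0.336 (0.186 to 0.56) in the doxorubicin plus ACY-1083 library, with 1 and 0 member UMIs in the doxorubicin and control libraries. The markers outside the selection went both ways, and the name subicular rests mainly on Fn1, which chose the nuclei.

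Synaptic and ion channel genes were set against the shares over all genes given above, 1.23% at least 2-fold higher and 1.59% at least 2-fold lower. Of 24 AMPA, kainate and NMDA receptor genes and partners measured, Grik1 and Grik3, kainate receptor subunits, were at least 2-fold higher and Gria1, an AMPA receptor subunit, at least 2-fold lower in members of all 3 libraries. Gria1 had 1104, 378 and 390.0 CPM in members, against 2754, 780.0 and 782 CPM in the other excitatory nuclei. Of 24 potassium channel genes, Kcnt1, a sodium-activated channel, was on the high side, with ratios of 2.92, 2.9 and 2.83, and Kcnc2 and Kcnh1 were on the low side, with 0.294, 0.366 and 0.424 and 0.46, 0.326 and 0.294. Of 31 adhesion and guidance genes, Cntn4, Cntn5 and Tenm3 passed 2-fold upward and Cdh9 downward. None of the 37 complex I genes, 40 genes of complexes II to V or 25 synaptic vesicle genes passed 2-fold in all 3 libraries. Grm8, a presynaptic metabotropic glutamate receptor, was on the high side (4.81, 3.99 and 4.84) and the neuropeptide Y receptor Npy2r on the low side (0.175, 0.11 and 0.309).

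Members differed among themselves in genes that the selection did not use. Members with Fn1 (109, 97 and 96 nuclei) were set beside members without it (315, 218 and 249); their median UMIs were 8403, 2510 and 2504, against 6103, 1975 and 2009. Of 4476 genes, 24 (0.536%) were at least 2-fold higher and 25 (0.559%) at least 2-fold lower with Fn1 in all 3 libraries. Ndst4, which modifies heparan sulfate, had 629.9, 296 and 371 CPM in members with Fn1, against 25.8, 40.5 and 37.5 CPM in members without it. The ETS transcription factor Etv1 had ratios of 6.01, 3.32 and 2.57. Ratios of Bcl6, a transcriptional repressor, were 13.5, 6.54 and 4.79, those of Ntng1, a membrane-bound netrin, 4.73, 3.4 and 2.93, and those of Kcnn2, a small-conductance calcium-activated potassium channel, 3.01, 3.39 and 2.94. These genes were higher with Fn1 in each library. Gpc6, a glypican, had ratios of 0.179, 0.126 and 0.0455, the serotonin receptor gene Htr2c 0.117, 0.283 and 0.113 and the homeobox gene Meis2 0.303, 0.347 and 0.174. Cux2 was also lower with Fn1, with ratios of 0.202, 0.324 and 0.196.

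Vwc2l split the members with Ndst4, Ntng1, Kcnn2, Bcl6 and Etv1 on the opposite side. Members with Vwc2l (299, 116 and 123 nuclei) and without it (125, 199 and 222) had median UMIs of 6285, 2075 and 2135, against 6567, 2160 and 2150.5. With Vwc2l, 13 of the 4476 genes (0.29%) were at least 2-fold higher and 22 (0.492%) at least 2-fold lower in all 3 libraries. Ndst4 had 36.5, 15 and 7.3 CPM in members with Vwc2l, against 617, 200.5 and 224 CPM in members without it. Ratios of Etv1 were 0.194, 0.318 and 0.393, of Ntng1 0.181, 0.214 and 0.165 and of Brinp3 0.161, 0.193 and 0.219. On the high side, Pamr1 had 46.6, 15.8 and 3.74, from 105, 27 and 27 UMIs with and 1, 3 and 14 without Vwc2l. Htr2c (3.71, 2.47 and 3.14) and Tle4, a corepressor gene active in layer VI (1.94, 1.91 and 2.16), were higher with Vwc2l. A member without Fn1 or without Vwc2l had to carry 2 of the other 4 selecting genes, so part of this opposition was set by the selection.

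**Figure D3:**
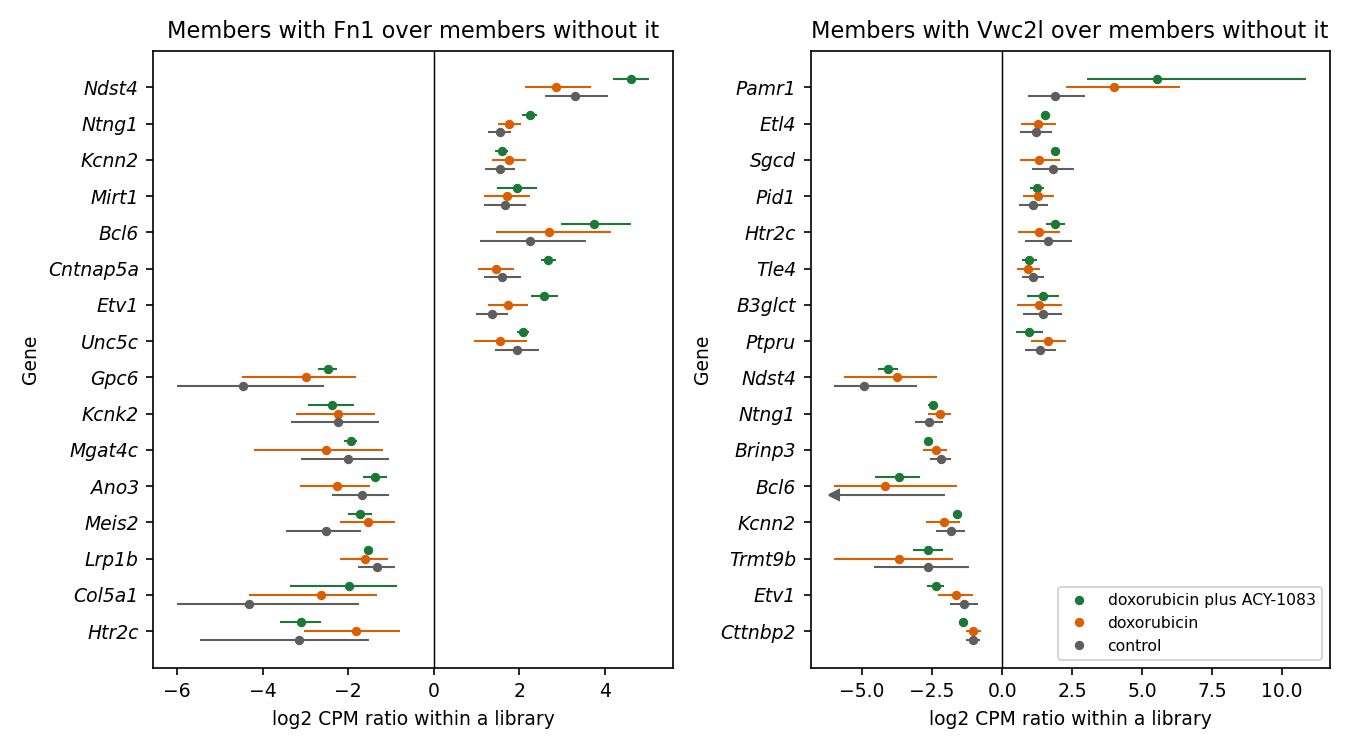
log2 CPM ratio within a library of members with Fn1 over members without it (left) and of members with Vwc2l over members without it (right), for the genes named from each comparison; colours are the doxorubicin plus ACY-1083, doxorubicin and control libraries, bars are 95% counting intervals and an arrow marks a library without a UMI in the nuclei with Vwc2l. Ndst4 is higher with Fn1 (ratios 24.4, 7.32 and 9.89) and lower with Vwc2l (ratios 0.0593, 0.0747 and 0.0326).

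Members with Rxfp1 had more Brinp3, at ratios of 6.97, 5.32 and 3.75, and less Unc13c, a gene of synaptic vesicle priming, at 0.213, 0.0634 and 0.138. Members with Coro6 differed by smaller amounts, with ratios of 1.4, 1.46 and 1.44 for the imprinted gene Peg3.

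Clustering gave 6 clusters of the 660 doxorubicin and control members and, in a separate run, 8 clusters of the 424 doxorubicin plus ACY-1083 members; at a Leiden resolution of 1 in place of 0.5, these numbers were 6 and 12. Their leading genes are a description, since the same counts made the clusters, and no cluster was given a cell type name. Among doxorubicin and control members, cluster 1 was led by Ndst4, Bcl6, Fn1, Etv1 and Mirt1, cluster 2 by Pamr1, Ptpru, Cntn6 and Tle4, cluster 3 by Gpc6, Cux2 and Slc4a4, cluster 4 by Unc13c, Camk2d and Sorcs3, cluster 5 by Zbtb20, Atp2b4, Pxdn and Brinp3, and cluster 6 by Ntng1, Mef2c and Rxfp1. Cluster 1 also held more Fezf2 than the other members, at 168 against 53.9 CPM. Cluster 2 held more Il1rapl2, Rorb and Hs3st4, with ratios of 16.6, 8.67 and 7.17. Cluster 3 held more Slc30a3, the synaptic vesicle zinc transporter, at 155 against 39.4 CPM. Each of the 6 held nuclei of both libraries, at 5.40% to 24.8% of the doxorubicin members and 2.61% to 26.7% of the control members. These shares are not compared between the libraries, because leading genes such as Zbtb20 also differed between them.

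The doxorubicin plus ACY-1083 members, clustered apart, repeated some of these groups. Cluster 4, with 16.5% of the members and a median of 9514 UMIs, was led by Ndst4, Stac, Bcl6, Fn1 and Etv1 and shared 5 of its 10 leading genes with cluster 1 of the other libraries (Ndst4, Bcl6, Fn1, Etv1 and Trmt9b). In both, the layer V marker Fezf2 was above the other members, with ratios of 3.23 in the doxorubicin plus ACY-1083 library and 3.12 in the other libraries. Cluster 2, led by Atp10b, Gpc6, Emcn and Cux2, shared Gpc6, Cux2 and Slc4a4 with cluster 3, and cluster 1, led by Cdc14a, Unc13c and Reln, shared Unc13c, Sorcs3 and Camk2d with cluster 4. Reln, which encodes the secreted protein reelin, had 117 CPM in that cluster, against 6.22 CPM in the other members, and the LIM homeobox gene Lhx2 had 76.9 CPM, against 3.89. Cluster 6, led by Kcnh8, Itga6, Cntn6 and Rorb, shared Cntn6 with cluster 2. The remaining clusters 3, 5, 7 and 8, led by Cobll1, Nell1os, Sdk1 and Col25a1, shared at most 2 leading genes with any cluster of the other libraries.

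Between the doxorubicin and control libraries, members differed by small amounts. Of 3020 genes with at least 100 UMIs over both libraries, 39 (1.29%) were at least 1.5-fold higher and 36 (1.19%) at least 1.5-fold lower in doxorubicin members, and 1379 (45.7%) were higher by any amount. With TMM scaling in place of the total, 51 were higher and 28 lower. The median log2 ratio over these genes was -0.03. With at least 3 markers required, which left 127 doxorubicin and 144 control members and 1117 genes with enough UMIs, 15 genes were at least 1.5-fold higher and 18 lower, of which 4 and 2 were among those above.

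Among the named genes, Dcun1d5, Usp3 and Mt3 had the highest lower bounds of the ratio. Dcun1d5, which promotes cullin neddylation (GRCm38 chromosome 9, 7184520 to 7208205), had 137 CPM in doxorubicin members, against 74.5 CPM in control members, a ratio of 1.84 (1.32 to 2.58). Usp3, a deubiquitinase of histone H2A, had 151 CPM (111 UMIs) in doxorubicin members, against 86.9 CPM (70 UMIs) in control members, a ratio of 1.73 (95% interval 1.27 to 2.37). In the other excitatory nuclei the ratios of these genes were 1.05 and 0.929. Mt3, the brain metallothionein that binds zinc (GRCm38 chromosome 8, 94152607 to 94154146), had 175 CPM (129 UMIs) in doxorubicin members, against 107 CPM (86 UMIs) in control members, a ratio of 1.64 (95% interval 1.24 to 2.18), beside 1.39 in the other excitatory nuclei. Scn3b, an auxiliary subunit of sodium channels, had a ratio of 1.74 (1.2 to 2.54), beside 1.05. Mif, a cytokine gene, had 1.72 (1.19 to 2.51), beside 1.22, and Lactb2, a mitochondrial ribonuclease, 1.74 (1.17 to 2.63), beside 0.909. For Ndufa4 (1.54), Ndufc2 (1.76), Cox8a (1.48), Tmsb4x (1.43), Cst3 (1.35) and Zcchc7 (1.32), the other excitatory nuclei also had ratios above 1, between 1.21 and 1.51.

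At the lower end, Usp31, a deubiquitinase (GRCm38 chromosome 7, 121642021 to 121707253), had 43.5 CPM (32 UMIs) in doxorubicin members, against 90.7 CPM (73 UMIs) in control members, a ratio of 0.479 (95% interval 0.306 to 0.736), beside 0.77 in the other excitatory nuclei. Luc7l2, a splicing factor of the U1 particle (GRCm38 chromosome 6, 38551334 to 38609470), had 611 CPM (450 UMIs) in doxorubicin members, against 851 CPM (685 UMIs) in control members, a ratio of 0.719 (95% interval 0.637 to 0.81), beside 0.782. Brd2, which reads acetylated histones, had 0.561 (0.373 to 0.831), Ilf2, a binder of double-stranded RNA, 0.565 (0.389 to 0.812), and Col4a3bp, the ceramide transfer protein, 0.533 (0.349 to 0.799). In the other excitatory nuclei these 3 genes had 0.913, 0.934 and 0.982. Nudt3 (0.552), Gpatch2 (0.553), Ccdc47 (0.60), Chpf2 (0.624) and Pura (0.65), which encodes a nucleic acid binder of dendritic transport, were lower by similar amounts. Adgra1, an adhesion receptor, had 177 CPM (130 UMIs) in doxorubicin members, against 262 CPM (211 UMIs) in control members, a ratio of 0.674 (95% interval 0.537 to 0.842), beside 0.826. D10Wsu102e had 0.683 (0.552 to 0.842), beside 0.707 in the other excitatory nuclei. Named genes kept their direction after thinning by the rule that chose them.

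**Figure D4:**
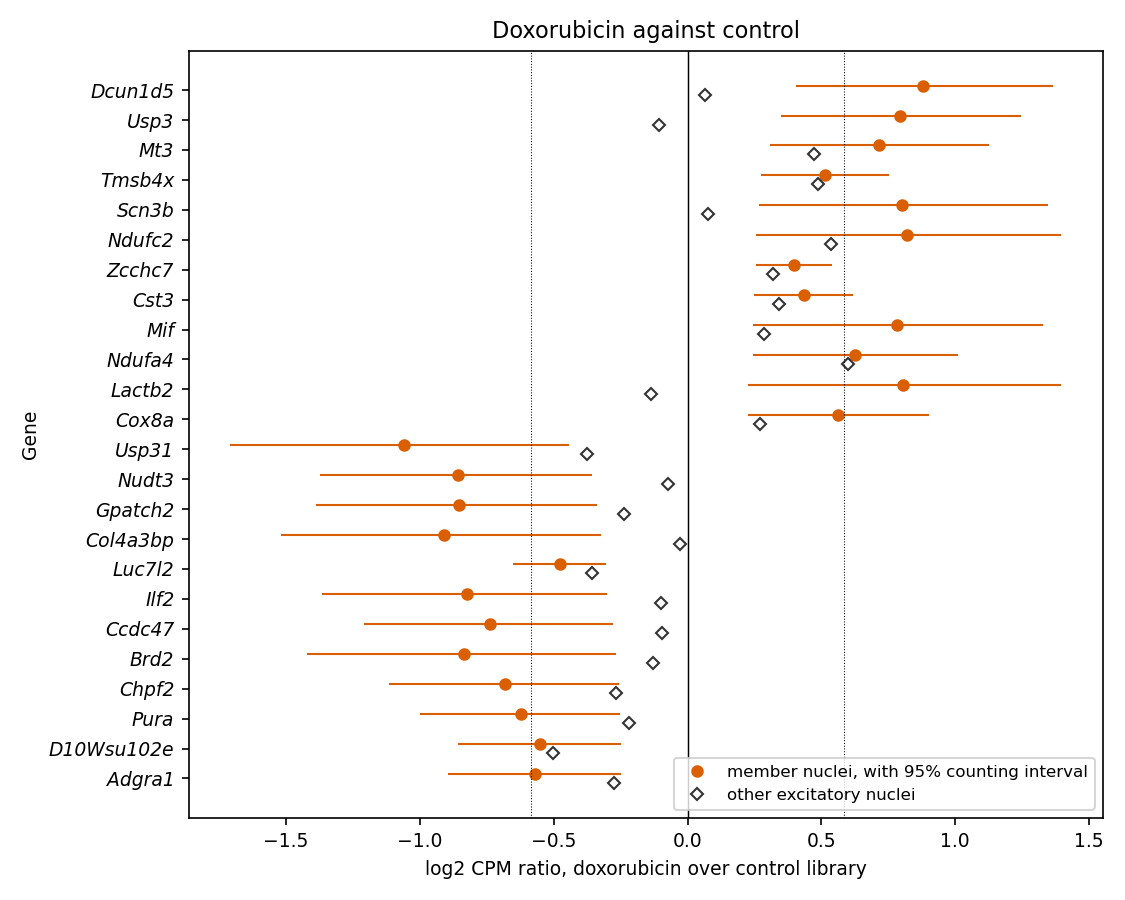
log2 CPM ratio of the doxorubicin over the control library for the genes named from this comparison; filled circles are members with 95% counting intervals, open diamonds the other excitatory nuclei, and dotted lines mark 1.5-fold. Ratios in members run between 0.479 for Usp31 and 1.84 for Dcun1d5, and for several genes, such as Dcun1d5 and Nudt3, the other excitatory nuclei lie near a ratio of 1.

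Genes of mitochondrial respiration stood higher as a group in doxorubicin members. Of 13 complex I genes with at least 100 UMIs over both libraries, the minimum for every list here, 12 were higher, with a median log2 ratio of 0.37. Summed values, here and for the lists below, take in every gene of a list, including those under this minimum. All 37 complex I genes summed to 2547 CPM in doxorubicin members, against 1977 CPM in control members, a ratio of 1.29 (1.2 to 1.38). Of 28 genes of complexes II to V, 23 were higher with a median log2 ratio of 0.28, with Uqcrq at 1.63 (1.14 to 2.35) and Atp5b at 0.862 (0.701 to 1.06) as the extremes. All 40 listed genes had a summed ratio of 1.24 (1.17 to 1.3). Of 62 cytosolic ribosomal protein genes, 55 were higher with a median log2 ratio of 0.27, led by Rplp2 at 1.98 (1.35 to 2.95) and Rpl37 at 1.8 (1.32 to 2.45). The whole list of 83 genes had a summed ratio of 1.2 (1.16 to 1.25). The other excitatory nuclei had summed ratios of 1.26, 1.23 and 1.18 for these lists. All 6 antioxidant genes at that minimum were higher (median log2 0.18), with Mt3 at the high end, followed by the peroxiredoxin Prdx2 at 1.4 (0.988 to 1.99). The 13 mitochondrially encoded genes had a summed ratio of 1.37 (1.14 to 1.65). Among them, mt-Co3 had 1.73 (1.17 to 2.57) and mt-Co1 1.11 (0.746 to 1.67), from 71 against 45 UMIs and 53 against 52 UMIs. With nuclei thinned to 1000 UMIs and members chosen anew, 113 doxorubicin and 132 control, the summed ratio of this list turned to 0.973.

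Of the RNA of other cell types, that of choroid plexus was higher in doxorubicin members, as was Apoe among the astrocyte markers. The 5 choroid plexus markers summed to 2172 CPM in doxorubicin members, against 918 CPM in control members, a ratio of 2.37 (2.17 to 2.59), with Ttr at 2018 against 814 CPM; none of the 5 was at 0 in either library. The 8 astrocyte markers summed to a ratio of 1.23 (1.12 to 1.35). Apoe, at 1.41 (1.25 to 1.6), held 590 of their 979 UMIs in doxorubicin members and 457 of 868 in control members. Of the others with at least 100 UMIs over both libraries, Aldoc had 1.13 (0.769 to 1.67) and Slc1a2 0.996 (0.837 to 1.18). The 8 oligodendrocyte markers summed to 1.08 (0.916 to 1.26), an interval that holds 1. The part of such RNA in the higher respiratory, ribosomal, Mt3 and Cst3 values was not tested. Markers of granule neurons summed to 1.33 (1.06 to 1.68), those of CA1 neurons to 1.02 (0.842 to 1.22) and those of CA2/CA3 neurons to 0.928 (0.638 to 1.35). C1ql3, at 1.3 (1.01 to 1.67), held 140 of the 173 granule marker UMIs in doxorubicin members. The selection limited the sums of these neuron markers in members, and those of Mog, Mag and Aqp4 among the glial markers. These values are therefore a description only.

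Of potassium channel genes and of AMPA, kainate and NMDA receptor genes, 33.3% each were higher in doxorubicin members, beside 45.7% of all genes. In lists of 15 genes this is a difference of few genes. Of 15 potassium channel genes, 5 were higher and 10 lower, with a median log2 ratio of -0.14. All 26 listed had a summed ratio of 0.897 (0.848 to 0.949), beside 0.914 in the other excitatory nuclei. Kcnq3, a voltage-gated channel subunit, had 125 CPM in doxorubicin members, against 161 CPM in control members, a ratio of 0.774 (0.586 to 1.02). Kcnj6, a G-protein-gated inward rectifier, went the other way at 1.37 (1.02 to 1.84). Of 18 sodium and calcium channel genes, 7 were higher (median log2 -0.04), near the share over all genes, with Cacnb4, a calcium channel auxiliary subunit, at 0.663 (0.512 to 0.855) and Scn3b, given above, at the extremes. Of 15 AMPA, kainate and NMDA receptor genes and partners, 5 were higher with a median log2 ratio of -0.07. All 24 listed had a summed ratio of 0.944 (0.916 to 0.973). Grin1, the obligatory NMDA receptor subunit, had 0.812 (0.688 to 0.957) and Gria2 0.922 (0.884 to 0.962). Of 21 synaptic vesicle genes 7 were higher (median log2 -0.07), and of 20 adhesion and guidance genes 7 (median log2 -0.12), with the netrin receptor gene Unc5c at 0.717 (0.551 to 0.93) and Ntng1 at 1.19 (1.05 to 1.35) as the extremes. Of 8 GABA receptor genes and partners 5 were higher, and all 15 listed had a summed ratio of 1.02 (0.938 to 1.11). Of 3 metabotropic glutamate receptor genes 2 were higher, and all 7 listed had 1.0 (0.922 to 1.08). Lists this short do not allow their counts to be set against the share over all genes.

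Genes that answer to DNA damage were mostly at low counts. Of the 16 p53 target genes none reached 100 UMIs over both libraries, and their summed counts were 229 UMIs in doxorubicin members, against 290 in control members, a ratio of 0.864 (0.723 to 1.03). Of 4 DNA break repair genes, 3 were lower, too few genes to set against the 45.7% higher over all genes. The summed ratio of the list was 0.838 (0.737 to 0.951), beside 0.976 in the other excitatory nuclei. Trp53bp1, which binds at double-strand breaks, had 0.759 (0.584 to 0.984). Prkdc, the catalytic subunit of the DNA-dependent kinase, had 1.16 (0.773 to 1.74). Top2b, the topoisomerase II form of neurons, had 0.924 (0.672 to 1.27) and Top1 1.17 (0.962 to 1.42). Hdac6, the target of ACY-1083, had 25.3, 77.4 and 64.6 CPM in members of the doxorubicin plus ACY-1083, doxorubicin and control libraries, from 77, 57 and 52 UMIs, and 25.5, 56.4 and 61.9 CPM in the other excitatory nuclei. The ratio of doxorubicin to control members was 1.2 (0.809 to 1.78). The doxorubicin plus ACY-1083 level of Hdac6 cannot be set beside the others, since that library's counts followed intron length.

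Zbtb20 and Etv1, which mark different member clusters, were lower in doxorubicin members. Zbtb20 had 162 CPM in doxorubicin members, against 237 CPM in control members, a ratio of 0.681 (0.537 to 0.861), beside 0.874 in the other excitatory nuclei. Etv1 had 239 CPM, against 302 CPM, a ratio of 0.792 (0.649 to 0.966), beside 1.07. A different mix of member kinds and a different level within a kind cannot be told apart from these sums. Among layer and field markers with 100 or more UMIs, Fezf2 had 1.03 (0.72 to 1.47), Bcl11b 1.16 (0.895 to 1.5), Tle4 1.05 (0.863 to 1.27) and Meis2 1.09 (0.867 to 1.36), and each interval held 1.

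Immediate early genes, which neurons induce within minutes of activity, differed in direction in the members. The 20 listed genes summed to a ratio of 0.905 (0.804 to 1.02), beside 0.814 in the other excitatory nuclei. Npas4, Junb and Nr4a1 were the only genes of the list whose intervals left out 1. Npas4, a transcription factor induced by calcium influx, had 16.3 CPM (12 UMIs) in doxorubicin members, against 38.5 CPM (31 UMIs) in control members, a ratio of 0.423 (0.198 to 0.848). Junb, an AP-1 subunit, had 50.3 CPM (37 UMIs), against 84.5 CPM (68 UMIs), a ratio of 0.595 (0.388 to 0.901). Both were lower in doxorubicin members. Nr4a1, an orphan nuclear receptor, was higher, at 113 CPM (83 UMIs) in doxorubicin members, against 78.3 CPM (63 UMIs) in control members, a ratio of 1.44 (1.03 to 2.03). In the other excitatory nuclei the ratios were 0.594 for Npas4, 0.736 for Junb and 0.946 for Nr4a1. Its relative Nr4a2 had 1.01 (0.78 to 1.32), Egr1 0.709 (0.45 to 1.1), Arc 0.963 (0.627 to 1.47) and Fos 0.926 (0.375 to 2.24). Only Junb, Nr4a1 and Nr4a2 of the 20 genes reached 100 UMIs, and Egr2 was at 0 in members of both libraries.

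The share of members with a UMI was lower in the doxorubicin than in the control library for Npas4 and Junb. In nuclei thinned to 1000 UMIs, which kept 424, 305 and 329 members and 4385, 4434 and 4197 other excitatory nuclei, Npas4 was found in 0.236, 1.31 and 4.86% of members in the order doxorubicin plus ACY-1083, doxorubicin and control, against 0.479, 1.51 and 2.1% of other excitatory nuclei. Junb was found in 1.42, 4.26 and 9.12% of members, against 2.03, 4.89 and 5.69%, and Nr4a1 in 5.66, 8.52 and 6.99%, against 2.42, 3.47 and 3.57%. Without thinning, the member shares were 4.01, 3.17 and 8.41% for Npas4, 15.1, 9.21 and 15.1% for Junb and 28.5, 18.4 and 14.2% for Nr4a1. The control share of Nr4a1 lay within the counting interval of the doxorubicin share (5.64% to 12.2%). The low thinned shares in the doxorubicin plus ACY-1083 library stood beside its larger counts in long-intron genes; the part of that difference was not tested.

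The promoters of these 3 genes are shown because the genes differ in direction while CREB, a calcium-responsive factor known to regulate immediate early genes, binds the full site TGACGTCA and its core TGACG. The sequences run from 250 bases before to 50 after the gene start (RefSeq, GRCm38.p6), 5′ to 3′ on the gene's strand: Npas4 at chr19:4989922-4990221 (minus strand), Junb at chr8:84978699-84978998 (minus strand) and Nr4a1 at chr15:101266596-101266895 (plus strand). Capitals mark TGACG or its reverse complement CGTCA.
Npas4: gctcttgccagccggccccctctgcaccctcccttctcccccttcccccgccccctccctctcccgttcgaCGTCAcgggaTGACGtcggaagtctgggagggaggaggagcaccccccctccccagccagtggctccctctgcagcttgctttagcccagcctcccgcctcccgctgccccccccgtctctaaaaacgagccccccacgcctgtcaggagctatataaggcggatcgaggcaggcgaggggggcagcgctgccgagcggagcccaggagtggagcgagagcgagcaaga
Junb: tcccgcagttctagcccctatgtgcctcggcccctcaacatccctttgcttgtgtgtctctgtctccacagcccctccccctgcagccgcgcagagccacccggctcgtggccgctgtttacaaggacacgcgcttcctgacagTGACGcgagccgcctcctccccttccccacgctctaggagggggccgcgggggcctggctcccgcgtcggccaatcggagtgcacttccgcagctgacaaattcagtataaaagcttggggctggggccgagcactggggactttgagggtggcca
Nr4a1: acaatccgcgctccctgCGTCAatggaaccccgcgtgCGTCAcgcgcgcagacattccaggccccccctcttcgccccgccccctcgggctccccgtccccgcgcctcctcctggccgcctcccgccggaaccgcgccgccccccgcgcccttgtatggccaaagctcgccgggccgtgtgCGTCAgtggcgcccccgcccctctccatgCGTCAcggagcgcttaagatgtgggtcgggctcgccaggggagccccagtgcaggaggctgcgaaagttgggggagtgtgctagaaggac
TGACG occurred 2 times in the Npas4 promoter, 1 time in that of Junb and 4 times in that of Nr4a1, counted on both strands, and none of the 3 held the full TGACGTCA, which contains the core. Of 32851 promoters of the same length, 20.8% held TGACG and 1.79% held TGACGTCA. A match is a description of the letters and not evidence of binding.

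Between doxorubicin plus ACY-1083 and doxorubicin members, ratios followed the length of a gene's introns. The median log2 ratio was -1.62 for genes with under 500 bases of intron and 1.31 for genes in the bin with the longest introns, against 0.07 and -0.04 for doxorubicin over control in the same bins. Different versions of the counting software made the matrices of these libraries, and their setting for intronic reads is not known here. Treatment and counting therefore cannot be told apart. Levels were compared only among genes with under 2000 bases of intron, each scaled to the summed UMIs of such genes. For these genes, too, the values describe the libraries and do not separate treatment from counting.

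**Figure D5:**
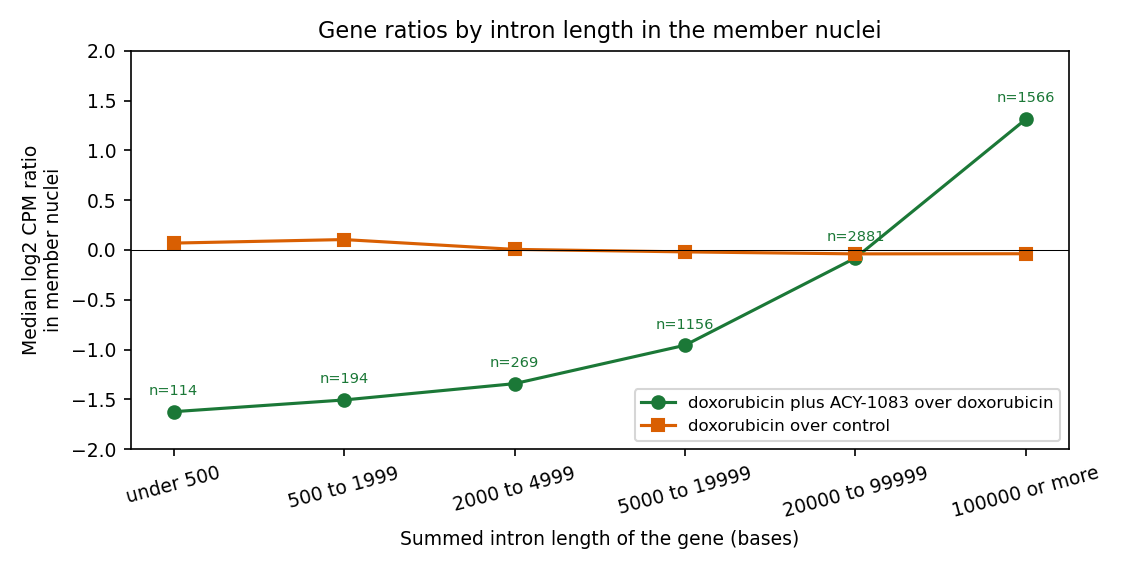
Median log2 CPM ratio in members (vertical axis) by summed intron length of the gene in bases (horizontal axis), for doxorubicin plus ACY-1083 over doxorubicin (circles, with the number of genes) and doxorubicin over control (squares). The first runs between -1.62 and 1.31 across the bins, and the second stays between -0.04 and 0.10.

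Of 537 such genes with at least 50 UMIs, 46 (8.57%) were at least 1.5-fold higher and 30 (5.59%) at least 1.5-fold lower in doxorubicin plus ACY-1083 members than in doxorubicin members. Nnat, the imprinted gene of the membrane protein neuronatin, had 5337 per 1000000 such UMIs (484 UMIs) in doxorubicin plus ACY-1083 members, against 922 per 1000000 such UMIs (57 UMIs) in doxorubicin members, a ratio of 5.79 (4.39 to 7.76); the other excitatory nuclei had 4.54. Gps2, a subunit of the NCoR corepressor complex, had 2039.8 per 1000000 such UMIs (185 UMIs) in doxorubicin plus ACY-1083 members, against 421 per 1000000 such UMIs (26 UMIs) in doxorubicin members, a ratio of 4.85 (3.21 to 7.62), beside 2.45. Mettl18, a histidine methyltransferase, was found as 51 UMIs in doxorubicin plus ACY-1083 members, against 1 UMI in doxorubicin members, a ratio of 34.8 (5.97 to 1399.7), beside 10.5. These large ratios were seen in other excitatory nuclei too. Cfl2, an actin-severing cofilin, had 1.98 (1.47 to 2.7), and Tmem186, Rpp21, Naxe and Hnrnph2 had ratios between 2.15 and 3.95. On the low side, Gpr137 had 0.454 (0.29 to 0.706), Bet1l, of vesicle transport, 0.46 (0.272 to 0.769), and Kcnq1ot1, a long antisense RNA of the imprinted Kcnq1 region, 0.743 (0.694 to 0.796). The other excitatory nuclei had 0.925, 0.882 and 0.884 for these 3. Ubald1, Mlst8 and Rap2b had ratios between 0.528 and 0.591. The balance of higher and lower genes changed with the intron cutoff, as given under the dependence on processing.

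Mif and Ypel4 were lower in doxorubicin plus ACY-1083 members than in doxorubicin members, at 0.611 (0.435 to 0.857) and 0.655 (0.491 to 0.873), while doxorubicin over control had 1.72 (1.19 to 2.51) and 1.59 (1.16 to 2.19). The doxorubicin members enter both ratios, so opposite signs are partly built in and carry no test. Of 5 complex I genes with short introns, 1 was higher in doxorubicin plus ACY-1083 members (median log2 -0.25), and of 11 genes of complexes II to V, 5 were (median log2 -0.0025), beside 262 of all 537 genes (median log2 -0.01). Mt3 had 0.888 (0.702 to 1.13), and Mt1, another metallothionein, 0.688 (0.524 to 0.904). Among immediate early genes, Junb had 1.29 (0.854 to 1.98) and Arc, which encodes a synaptic capsid-like protein, 0.542 (0.338 to 0.865), and 4 of 7 were higher.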

How the data were processed

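Nuclei of frozen mouse hippocampus were profiled with the 10x 3' version 3 chemistry, with 1 library per group. The authors deposited unnormalized UMI counts by gene and barcode. The doxorubicin plus ACY-1083 counts came from Cell Ranger 5.0.0 and those of doxorubicin and control from Cell Ranger 4.0.0, per the file headers; version 6.0.0 and mm10 stand in the submitters' processing notes, and their handling of intronic reads was not given in the sources used here. Totals were 62151258, 21458785 and 19175447 UMIs in the order doxorubicin plus ACY-1083, doxorubicin and control, and no barcode had fewer than 500.

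Members were found by the stated rule on all barcodes, with no filter and no doublet removal. The members and gene lists were chosen with earlier results of these data known. UMIs were summed over the members of a library and divided by their total to give CPM. Ratios have exact Clopper-Pearson intervals conditional on the sum, shares exact Clopper-Pearson intervals, at 95%; PCR duplicates are removed by UMIs, and the intervals leave out differences between animals and libraries. Genes had at least 100 UMIs over the groups compared (50 for short introns, 30 within members). Other excitatory nuclei met the same conditions on transporters, Gad1 plus Gad2, thalamic and glial genes and were not members; the mirrored rules swapped the marker sets. Intron lengths came from GENCODE vM21, which matched 99.6% of 32285 genes on ID. Genes were named by the bound nearest a ratio of 1 (12 each way for doxorubicin against control, 8 for short introns, 12 high and 8 low for members against other excitatory nuclei), the first 2 sets only if thinning kept their direction, and without mitochondrial, ribosomal, predicted and other-type marker genes, plus list extremes. Clusters used 2000 variable genes, 30 components, 15 neighbours and Leiden resolution 0.5 in scanpy 1.11.5. edgeR 4.0.16 served only for TMM factors on the deposited counts in an alternative. Scrublet's automatic threshold marked 3 barcodes of the control library and 1 of each other, so the top 5% of scores stood for doublets in the alternative. The scripts were checked on simulated data. Some genes that these rules name are not reported here.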

Additional observations from a re-analysis of the deposited data

Results flagged for a closer look

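Adgra1, which encodes an adhesion G-protein-coupled receptor, differed in direction between members and CA1 neurons. In members it had 177 CPM in the doxorubicin library, against 262 CPM in the control library, a ratio of 0.674 (0.537 to 0.842). In CA1 neurons, set apart by the mirrored rule, it had 89.7 CPM (92 UMIs) in the doxorubicin library, against 62.7 CPM (57 UMIs) in the control library, a ratio of 1.43 (1.02 to 2.03). The gene was named by its member interval and flagged because CA1 neurons went the other way, so neither interval lends support. Both intervals cover counting error only and come from the same libraries. The difference was not tested, because each group had 1 library. Granule and CA2/CA3 neurons had ratios of 1.15 and 0.958.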

How the results depend on the processing

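The member share moved with the rule. In the order doxorubicin plus ACY-1083, doxorubicin and control it was 2.04, 1.04 and 1.32% with 3 markers required, 2.88, 2.15 and 2.66% with a 3-times margin, 0.567, 1.27 and 1.66% after thinning, 5.66, 4.35 and 5.01% without the transporter condition, 1.01, 0.826 and 1.12% without Tshz2 and 3.35, 1.95 and 2.31% without Coro6. Doxorubicin was below control under each, and doxorubicin plus ACY-1083 was below both only after thinning. Doxorubicin against control gave 15 higher and 18 lower genes with 3 markers, 5 higher and 3 lower after thinning, 5 higher and 5 lower at 200 UMIs and 2014 higher and 2309 lower with no filter. The last pair of settings changed which genes were tested (1216 and 14585 in place of 3020); 3 markers left 1117 genes, and thinning changed depth, members and genes tested (182) at once. TMM scaling gave 51 higher and 28 lower. Summed ratios moved to 1.16 for complexes II to V and 0.964 for potassium channels with 3 markers, and after thinning to 0.973 for mitochondrially encoded genes (reversed), 1.01 for antioxidant genes, 0.933 for sodium and calcium channels, 0.696 for DNA break repair, 1.29 for topoisomerases and 0.596 for parahippocampal markers; the cause was not tested. Short-intron genes past 1.5-fold, higher and lower, were 46 and 30 of 537 in the main setting and 7 and 14 of 207 under 500 bases. They were 160 and 82 of 1081 under 5000, 13 and 7 of 253 at 100 UMIs and 2 and 2 of 20 after thinning. The balance of higher and lower genes thus still changed with the intron cutoff, and the cause was not tested. Members against other excitatory nuclei gave 21 and 54 genes after thinning, when 2732 genes were tested, and 155 and 188 without the doxorubicin plus ACY-1083 library, an alternative chosen after seeing the data. Mirt1 was at 0 UMIs in thinned doxorubicin plus ACY-1083 members. Of the remaining recomputed main values, 124 stayed within counting error or 1.5 times. Ratios of the named genes moved beyond counting error in 10 recomputations for doxorubicin against control (135 did not), 10 for doxorubicin plus ACY-1083 against doxorubicin (58 did not) and 74 for members against other excitatory nuclei (165 did not, and Mirt1 reversed), 38 of these after thinning and 20 with 3 markers. No paired analysis was possible because each group has 1 library. Depth limits genes of low count, and p53 targets could not be compared singly.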

Other observations

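Further gene groups of the members had these values for doxorubicin against control. Of 4 neuropeptide and receptor genes with at least 100 UMIs, 3 were higher (median log2 0.32), with Cck, the peptide cholecystokinin, at 1.2 (0.951 to 1.51) and Chrm3, a muscarinic receptor, at 0.779 (0.511 to 1.18); Sst, a marker of GABAergic cells, had 1.31 (0.904 to 1.91) in members and 1.3 in the other excitatory nuclei. Of 6 clock genes 1 was higher, with Clock at 0.719 (0.546 to 0.942) and Nr1d2, a repressor of the clock, at 1.25 (0.944 to 1.67). Of 13 tubulin and microtubule genes 6 were higher, near the 45.7% higher over all genes. Among them, Tuba1a had 1.47 (1.12 to 1.93) and Mapt, which encodes tau, 0.826 (0.665 to 1.02). Of 8 chaperone genes 4 were higher, also near that share, led by Hspa8 at 1.31 (1.08 to 1.59). All 3 cholesterol synthesis genes with enough UMIs were lower, with Cyp51 at 0.725 (0.502 to 1.04). Nrgn, a calmodulin-binding protein of dendrites, had 1.36 (1.12 to 1.64) in members and 1.07 in the other excitatory nuclei. The neuropeptide, clock and cholesterol lists are too short for their counts to be set against the share over all genes. These ratios carry no test, and no explanation was examined.

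A further 266, 217 and 202 nuclei of the doxorubicin plus ACY-1083, doxorubicin and control libraries met every condition except a detected Slc17a7 or Slc17a6. Their median UMIs were 4630, 1656 and 1638, below those of the members, and Zbtb20 had 269.8, 117 and 196 CPM and Brinp3 380.3, 724 and 592 CPM in them.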
